A study of Gallus gallus with 16 samples.

Results

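The propionate and methylmalonyl-CoA pathway was followed in chicken ovarian cancer cells exposed to metformin. Its 8 genes were chosen by name (MCEE, PCCA, PCCB, MUT, MMAA, MMAB, MMADHC and MMACHC), out of 23910 genes in the count table. MCEE was picked because its mRNA was lower at higher doses in these same libraries, so its values across dose are a description, and no test of them is read as support. The table listed 7 of the 8 under these symbols and MUT under its newer symbol MMUT, and all 8 passed the filter on low counts in every comparison.

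The cells were primary COVCAR cultures from the ascites of 4 Hy-Line W-36 hens with ovarian cancer, 1 hen per line (C5, C7, C9 and C11), labelled as ovarian endometrioid adenocarcinoma. Every line was held for 24 h in serum-free medium with insulin and EGF on ultra-low attachment plates, without metformin (control) or with 0.5, 1 or 2 mM of this biguanide drug. One library was sequenced per line and dose, which gave 16 libraries and n = 4 lines in each group. C5, C7 and C9 were at passage 3 and C11 at passage 2, so passage and line cannot be told apart. The methods describe triplicate treatment without saying whether wells were pooled for a library. The ages of the hens were not used here.

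Propionyl-CoA arises when cells break down valine, isoleucine, methionine, threonine, odd-chain fatty acids and the side chain of cholesterol. In mitochondria the biotin-dependent propionyl-CoA carboxylase turns it into the D form of methylmalonyl-CoA, methylmalonyl-CoA epimerase turns that into the L form, and methylmalonyl-CoA mutase, which needs a form of vitamin B12 (cobalamin), converts the L form to succinyl-CoA, an intermediate of the TCA cycle. In humans, inherited loss of the carboxylase causes propionic acidemia, and loss of the mutase or of the genes that make its cofactor causes methylmalonic acidemia.

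Count totals lay between 34724071 and 42531887 per library, and 14888 to 16903 genes had at least 1 count. Libraries differed in how strongly counts depended on transcript length. The slope of log2 expression on log2 exonic length, taken relative to the mean of all libraries, was positive in 7 libraries (all 4 of C9, C7 and C11 at 0.5 mM, and C5 at 2 mM) and negative in the other 9. Of the epithelial markers 6 of 8 were in the table. KRT7 lay between 203 and 864 CPM, CLDN1 between 0.903 and 65.6, KRT18 between 0.242 and 28.7 and CDH1 between 0.451 and 7.09, whereas EPCAM was at 0.64 CPM or below and CLDN3 at 0.23 CPM or below in every library. The summed level of 7 fibroblast markers, led by COL1A1, was 18491 to 65947 CPM in control cells and 8670 to 30910 CPM at 2 mM. It was 9185 to 64195 CPM at 0.5 mM and 7181 to 58192 CPM at 1 mM, so the groups overlapped. Summed CPM of 6 macrophage markers was 8.39 to 105.2 in control cells and 9.88 to 30.1, 6.22 to 104.5 and 12.8 to 92.4 with increasing dose. That of the erythroid markers was at most 1.44 in any library. T cell markers summed to 112.0 to 222.0 CPM in control cells and 113.8 to 217.8, 64.5 to 187.1 and 91.8 to 135.1 with increasing dose. LCK alone was at 60.5 to 220.1 CPM over all libraries and made up most of this sum. CD3D was at 0.718 to 4.46 CPM, CD3E at 0.454 to 15.1 and CD4 at 0.135 or below. CD8A and CD28 had at most 1 read in any library. Ovarian surface or mesothelial markers summed to 6.31 to 94.2 CPM in control cells, 7.54 to 198.5 at 0.5 mM, 9.55 to 36.8 at 1 mM and 13.7 to 18.9 at 2 mM. The part of these differences in the results was not tested, and in bulk RNA fewer cells of a type and less RNA per cell cannot be told apart.

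The 8 genes lie on 8 chromosomes of the GRCg6a assembly. MCEE, which encodes the epimerase, is ENSGALG00000003913 on the plus strand of chr10:6245695-6255517, with 2966 exonic bases. It lies inside the span of MPHOSPH10 on the other strand (chr10:6237778-6318535) and shares 0 exonic bases with it. FAN1, a DNA repair nuclease gene, lies 6768 bases before MCEE, and APBA2 starts 2184 bases after it. The carboxylase subunits are PCCA (alpha, ENSGALG00000016872, minus strand of chr1:145418480-145689429) and PCCB (beta, ENSGALG00000037238, plus strand of chr9:698705-726916). MMUT, the mutase, is ENSGALG00000016697 on the plus strand of chr3:108799743-108819150. Of the cobalamin genes, MMAA (ENSGALG00000009974) is at chr4:31180282-31187602 on the plus strand, MMAB (ENSGALG00000029947) at chr15:7064507-7068108 on the minus strand, MMADHC (ENSGALG00000012473) at chr7:34920849-34933480 on the minus strand and MMACHC (ENSGALG00000010234) at chr8:21490165-21495843 on the plus strand. MMAB shares 3 exonic bases with the microRNA gene gga-mir-12227 on the same strand, and a read over both is counted for each.

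The epimerase mRNA was lower with each step in dose. In control cells the normalised MCEE count (CPM, scaled to library size with TMM factors) was 6.49 in C5, 4.91 in both C7 and C9, and 4.35 in C11. With 0.5 mM metformin C5, C7, C9 and C11 were at 5.24, 3.33, 3.65 and 4.26 CPM. With 1 mM the values in that order were 3.46, 2.18, 2.89 and 3.37, and with 2 mM 1.18, 1.25, 1.23 and 1.86. All 4 lines were thus lower than their own control at every dose, as were 5.56% of all genes at 0.5 mM. The 0.5 mM group overlapped the controls, whereas every library at 1 mM and at 2 mM was below the lowest control, a separation found for 1.12% and 3.33% of all genes tested. C5 started highest and ended lowest, whereas C11 had the lowest control and the highest value at 2 mM.

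The control mean of MCEE was 5.16 ± 0.922 CPM, and the means at 0.5, 1 and 2 mM were 4.12 ± 0.839, 2.98 ± 0.587 and 1.38 ± 0.321 CPM (SD, n = 4). Relative to its own control, the median line kept 77.5% of the MCEE level at 0.5 mM, 56.2% at 1 mM and 25.3% at 2 mM. The spread over lines at 2 mM ran from 18.2% in C5 to 42.8% in C11. Fitted log2 fold changes were -0.33 (SE 0.296), -0.80 (SE 0.324) and -1.91 (SE 0.326) at the 3 doses, and the slope over all 16 libraries was -0.97 per mM (SE 0.133) on the log2 scale. Since MCEE was chosen on this slope, its place among the genes (rank 2 of 14108 by the p-value of the slope) is not evidence of its own. It was 1 of 12 genes (0.0851% of 14108) that were lower at each dose step in all 4 lines, a group that also held the RNA-binding genes RBM3, HNRNPU and SRSF5, and 0 genes were higher at each step.

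**Figure D1:**
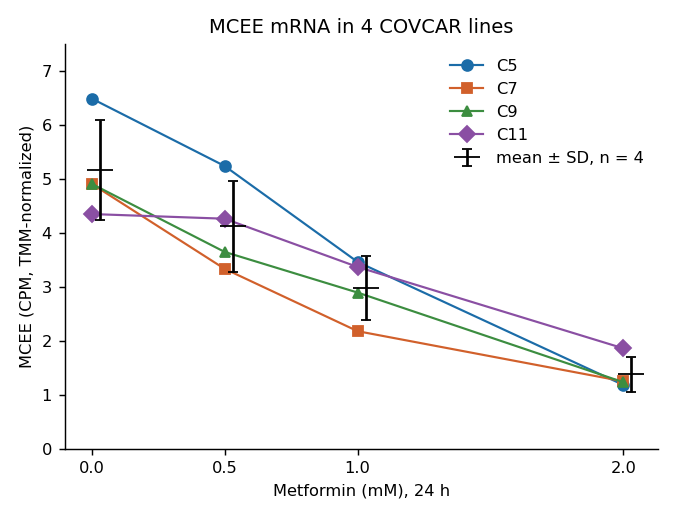
MCEE level (TMM-normalised CPM, vertical axis from 0) against metformin dose (mM, horizontal axis) in the 4 COVCAR lines, joined by line, with the mean ± SD of each dose (n = 4) drawn beside the points. Each line descends at every step, from 4.35 to 6.49 CPM in control cells to 1.18 to 1.86 CPM at 2 mM, and C11 lies above the other lines at 2 mM.

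MCEE was a gene of low expression, and its counts limit the precision of each library's value. The 4 control libraries held 162 to 235 MCEE reads and the 2 mM libraries 41 to 65. For C5 the count was 235 without metformin (95% exact Poisson interval 205.9 to 267) and 44 with 2 mM (31.97 to 59.1). In C11, the line with the smallest difference, the counts were 170 (145.4 to 197.6) and 65 (50.2 to 82.9). The intervals cover counting error only.

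Taken line by line, the MCEE slope was steepest in C5 (-1.25 per mM), near -0.98 in C7 and C9, and -0.64 in C11. A test of whether dose slopes differ between lines, added after the data were seen, called none of the other 7 genes and none of all 14108 (0%), with 239 at an unadjusted p under 0.05 (edgeR). With 1 library per line and dose, this does not show that lines had the same slope.

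The genes beside MCEE on chromosome 10 had other values. FAN1 was at 15.8 ± 1.096 CPM in control cells and 22.9 ± 2.72 CPM at 2 mM (SD, n = 4), higher in 4 of 4 lines, with a slope of 0.27 per mM (SE 0.0779, adjusted p = 0.115, edgeR). That of APBA2, an adaptor protein gene, was -0.22 (SE 0.254, adjusted p = 0.787). MPHOSPH10, whose span covers MCEE, encodes a protein of ribosomal RNA processing, and its slope was 0.04 per mM (SE 0.128, adjusted p = 0.953). None of the 3 passed the threshold. FAN1 was called in 4 of 33 alternatives, where its adjusted p ran from 0.0125 to 0.978.

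Next, the other 7 genes were compared with the control group at each dose. DEGs were genes with p under 0.01 and adjusted p under 0.05 in edgeR's quasi-likelihood test, adjusted over all genes tested. At every dose 0 of the 7 were DEGs, and so were 0% of all genes tested (13318 at 0.5 mM, 13330 at 1 mM and 13289 at 2 mM). An unadjusted p under 0.05 was found for 146, 636 and 1410 genes at the 3 doses. DESeq2 called 0, 34 and 357 genes, with none of the 7 among them. These fits have no term for the line, although libraries were paired by line. With the line as a replicate block edgeR still called 0 genes at each dose. With the block and the length slope of the libraries it called 0, 234 and 722 genes (0%, 1.76% and 5.43%) and none of the 7, and DESeq2 with the block called 2, 678 and 1861 genes (0.015%, 5.09% and 14%), with MMUT at 2 mM as the only one of the 7. Across dose as a number, 61 genes had a slope past the threshold (0.432% of 14108, with 0.262% lower and 0.17% higher), and 0 of the 7 did. This number depended on single libraries, from 2 genes without C9 at 2 mM, 3 without C5 at 2 mM and 4 without the C5 control to 205 without C7 at 1 mM, and it was 0 or 1 without C5, C9 or C11 as a whole. With the cell line as a replicate block, which takes out differences between the hens' lines, 700 genes were called for the slope (4.96%), again with none of the 7.

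The mutase gene MMUT, which encodes the enzyme that follows the epimerase, gave a smaller negative slope than MCEE. In control cells C5 was at 30.0 CPM, C7 at 22.7, C9 at 24.3 and C11 at 20.2, and at 0.5 mM the same lines were at 28.5, 21.0, 26.0 and 21.3. At 1 mM they were 26.9, 14.2, 20.7 and 17.8, and at 2 mM 20.2, 19.1, 16.2 and 12.4 CPM. All 4 lines were below their own control at 1 and 2 mM, and the highest 2 mM library (C5, 20.17 CPM) was just under the lowest control (C11, 20.24 CPM). Of all genes tested 13.9% and 16.9% were lower in 4 of 4 lines at 1 and 2 mM, and 3.33% did not overlap in this direction at 2 mM. The MMUT slope was -0.28 per mM (SE 0.105, 95% interval -0.49 to -0.08), with an adjusted p of 0.202 (edgeR). At 2 mM the log2 fold change was -0.53 (SE 0.240, adjusted p = 0.486). With the line as a replicate block the adjusted p of the slope was 0.0523. It was 0.0172 with the length slope of the libraries added and 0.00214 in DESeq2 with the block, the 2 of 33 alternatives that called MMUT (beside 16.1% and 12.2% of all genes), and it reached 0.925 in others.

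Because the epimerase and the mutase act in sequence, their mRNA levels per exonic length were set against each other. The MMUT to MCEE ratio of CPM per kilobase was 4.98 for C5, 4.99 for C7, 5.34 for C9 and 5.02 for C11 without metformin, a spread of 0.17 (SD) around 5.08. At 2 mM it was 18.4, 16.5, 14.1 and 7.20, with a mean of 14.1 ± 4.895. All 4 lines were thus close together without metformin, and every 2 mM value was above the highest control. The control MCEE counts had wide 95% Poisson intervals, such as 138.0 to 189.0 for 162 reads in C7. These are wider in proportion than the spread of the control ratios, so their closeness is not read as a constant ratio between lines. At 2 mM the divisor rested on 44, 41 and 47 MCEE reads in C5, C7 and C9. Their 95% Poisson intervals overlapped (31.97 to 59.1, 29.4 to 55.6 and 34.5 to 62.5). The ratios of these lines at 2 mM therefore cannot be ranked beyond counting error. At 0.5 mM the mean was 6.44 ± 1.03 and at 1 mM 7.21 ± 1.14. Since MCEE is the divisor and was chosen for its dose pattern, this ratio is a description and was given no test.

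**Figure D2:**
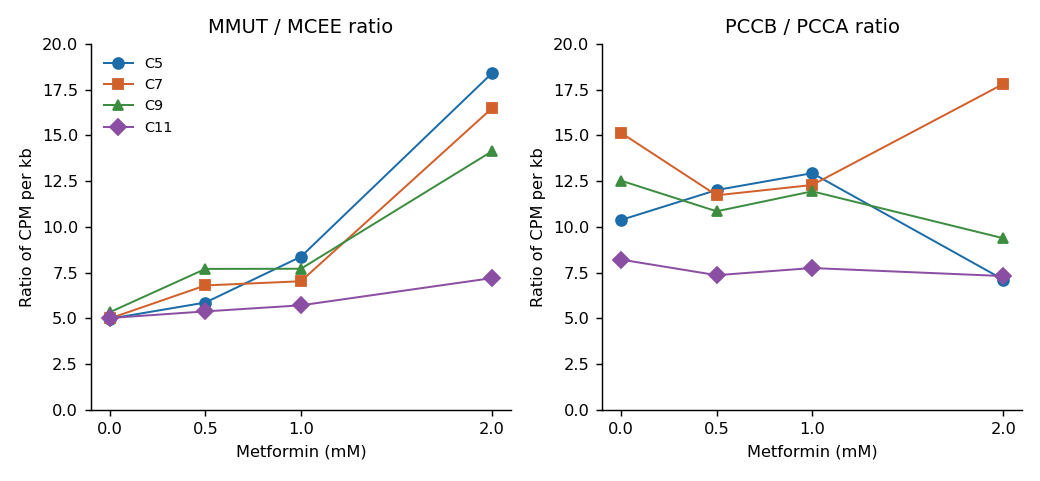
Ratio of CPM per kilobase of exon for MMUT over MCEE (left) and PCCB over PCCA (right) against metformin dose (mM), 1 point per line and dose, both vertical axes from 0. MMUT over MCEE starts at 4.98 to 5.34 and reaches 7.20 to 18.4 at 2 mM, and PCCB over PCCA stays between 7.12 and 17.8 with C11 lowest up to 1 mM.

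The 2 carboxylase subunits showed no call with dose. PCCA, the alpha subunit that carries biotin, was at 20.2 ± 5.71 CPM in control cells and 18.3 ± 2.89, 16.05 ± 2.92 and 17.1 ± 1.56 CPM at 0.5, 1 and 2 mM (SD, n = 4). Its slope was -0.12 per mM (SE 0.102, 95% interval -0.32 to 0.08, adjusted p = 0.664). In C9 PCCA was higher than control at each dose, in C5 and C7 lower at each, and the groups overlapped. PCCB, the beta subunit, was lower than control in 4 of 4 lines at 1 and at 2 mM, as were 13.9% and 16.9% of all genes tested at these doses. The PCCB slope was -0.17 (SE 0.164, 95% interval -0.49 to 0.15, adjusted p = 0.726), and from -0.41 to -0.04 with a line or library left out.

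PCCB ranged widely over the C7 libraries, and with a single library per line and dose, library and dose cannot be told apart. In that line it was at 145.1 CPM in control cells, 69.4 at 0.5 mM, 66.8 at 1 mM and 130.7 at 2 mM. C5 had 101.4, 98.2, 100.2 and 49.5 CPM at the same doses. C9 stayed between 57.6 and 69.8 CPM and C11 between 44.8 and 58.8. MMAB had the same order of doses in C7, with 46.8, 16.03, 15.2 and 29.4 CPM. The C7 control and C7 at 2 mM also had the 2 most negative length slopes of the 16 libraries (-0.29 and -0.21). Over all libraries the correlation of log2 CPM with this slope was -0.55 for PCCB and for PCCA and -0.48 for MMAB (n = 16, libraries of a line not independent). With MCEE it was -0.13 and with MMUT 0.08. With the length slope as a covariate, PCCA, PCCB and MMAB again had no call across dose (adjusted p = 0.521, 0.514 and 0.735, against 0.391 to 0.913, 0.154 to 0.947 and 0.497 to 0.991 over all 33 alternatives).

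The beta subunit was the more abundant transcript per length in every library. The PCCB to PCCA ratio of CPM per kilobase averaged 11.6 ± 2.96 in control cells and 10.5 ± 2.14, 11.2 ± 2.36 and 10.4 ± 5.04 with increasing dose (SD, n = 4). C11 was at 7.31 to 8.21 at all 4 doses and C7 at 11.7 to 17.8. The groups of doses overlapped throughout.

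**Figure D3:**
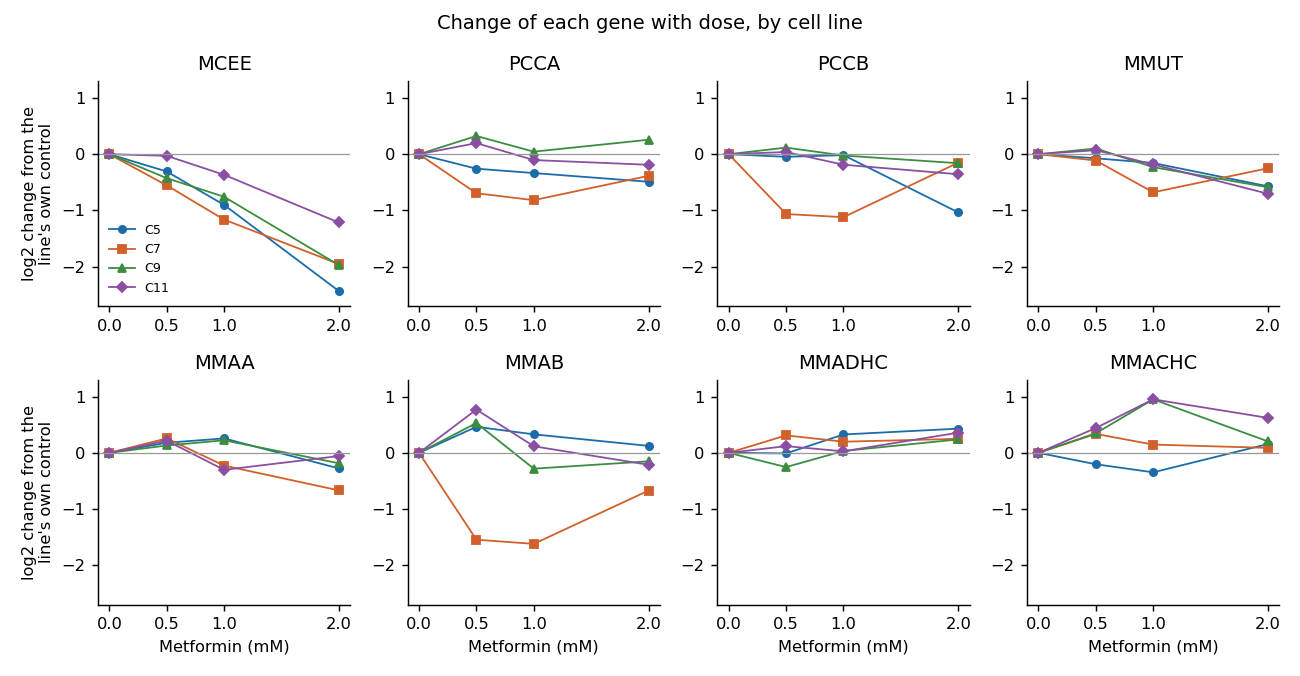
Log2 change in CPM of each of the 8 genes from the same line's own control (vertical axis, shared scale) against metformin dose (mM), with 1 curve per line. MCEE is between -2.43 and -1.21 at 2 mM in the 4 lines, MMUT is below 0 and MMADHC above 0 in all lines at 1 and 2 mM, and PCCB and MMAB in C7 are lowest at 0.5 and 1 mM.

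The other 4 genes make or deliver the cofactor of the mutase. MMACHC trims and reduces incoming cobalamin, MMADHC directs it to the mitochondrion or to methionine synthase, MMAB makes adenosylcobalamin, and MMAA is the G protein that loads it onto the mutase. MMADHC was the only one of the 4 whose slope had an interval that left out 0 before adjustment. The control of C5 was at 34.6 CPM, that of C7 at 31.5, of C9 at 43.2 and of C11 at 36.6, and the 0.5 mM libraries were at 34.4, 39.1, 36.3 and 39.8 CPM. At 1 mM they were 43.4, 36.1, 44.2 and 37.3, and at 2 mM 46.6, 37.4, 51.0 and 46.9 CPM. Each line was above its own control at 1 and 2 mM, as were 16.4% and 19.2% of all genes tested, but the groups overlapped. The slope was 0.17 per mM (SE 0.0679, 95% interval 0.03 to 0.30), with an adjusted p of 0.253 (edgeR). MMADHC passed in the same 2 of 33 alternatives, with an adjusted p of 0.0352 with line and length slope as terms and 0.0474 in DESeq2 with the line as a block, beside the same shares of all genes, and it reached 0.999 in others. Its log2 CPM had a correlation of 0.54 with the length slope of the libraries (n = 16).

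MMACHC was on average the least abundant of the 8, with 60 to 135 reads per library. Control cells averaged 2.07 ± 0.549 CPM, and the 3 doses in increasing order 2.41 ± 0.614, 2.76 ± 0.586 and 2.45 ± 0.402 CPM (SD, n = 4). All 4 lines were above their control at 2 mM, by 0.09 to 0.62 on the log2 scale, and the groups overlapped. Its slope was 0.11 per mM (SE 0.146, 95% interval -0.17 to 0.40, adjusted p = 0.813).

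For MMAB the control group ranged from 16.1 to 46.8 CPM, and the 2 mM group from 14.5 to 29.8. At 0.5 mM it was above control in C5, C9 and C11, by 0.46 to 0.77 on the log2 scale, and lower by 1.54 in C7. The slope was -0.16 per mM (SE 0.182, 95% interval -0.52 to 0.19, adjusted p = 0.764). MMAA was higher than control at 0.5 mM in 4 of 4 lines, by 0.13 to 0.26 on the log2 scale, where 5.51% of all genes were higher in every line. At 2 mM it was lower in 4 of 4 lines, by 0.06 in C11 to 0.67 in C7. The MMAA slope was -0.17 (SE 0.158, 95% interval -0.48 to 0.14, adjusted p = 0.707).

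**Figure D4:**
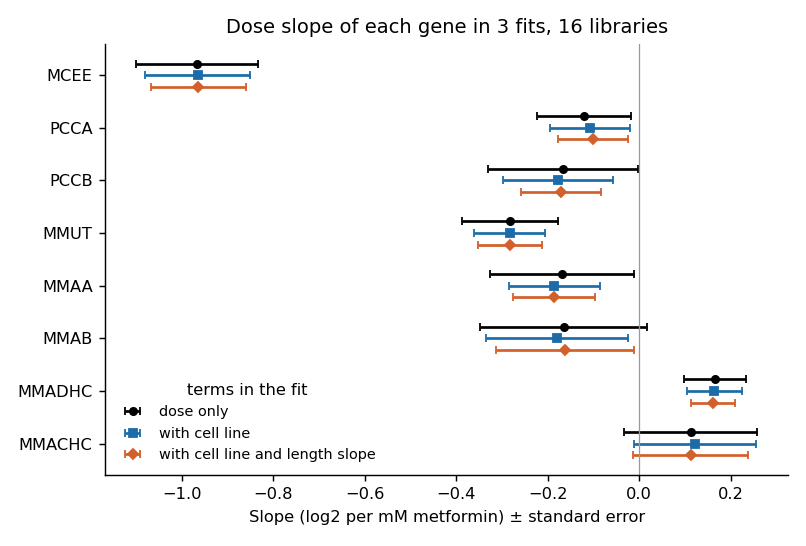
Dose slope of the 8 genes (log2 per mM, horizontal axis, bars 1 standard error) over 16 libraries, in fits with dose alone, with cell line added, and with cell line and the length slope of the libraries added. MCEE is near -0.97 in each fit, MMUT is at -0.28 and MMADHC at 0.16 to 0.17, and the remaining 5 lie between -0.19 and 0.12.

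The 4 lines themselves were then compared with dose as a term, a difference that was not used to choose the genes. MMAA was the only one of the 8 called (F = 8.86, adjusted p = 0.0271, edgeR), where 2099 genes or 14.9% of all genes tested were called. In C5 MMAA was at 8.56, 9.70, 10.2 and 7.06 CPM from control to 2 mM, and in C9 at 7.07, 7.74, 8.25 and 6.21. C11 had 5.99, 6.96, 4.85 and 5.75 CPM, and C7 5.00, 5.98, 4.27 and 3.14. C5 was above C7 and C11 throughout, with means over dose of 8.89 ± 1.40 in C5, 7.32 ± 0.880 in C9, 5.89 ± 0.867 in C11 and 4.60 ± 1.197 CPM in C7 (SD, n = 4 libraries of 1 line). The lowest C9 library was below the highest C11 library, and C5 overlapped C9, so neighbours in this order did not separate.

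No call was made between lines for PCCB (adjusted p = 0.0740), MMUT (0.0851), MMAB (0.141), PCCA (0.202), MCEE (0.352), MMADHC (0.375) or MMACHC (0.443). MMUT had its highest mean in C5 (26.4 ± 4.32 CPM) and its lowest in C11 (17.9 ± 3.95). PCCB ran from 103 ± 40.7 CPM in C7 to 52.8 ± 6.52 in C11. A line stands for 1 hen and its libraries share that source, so this test compares the 4 cultures. The MMAA call was lost without any 1 line or any 1 dose (adjusted p from 0.0468 to 0.230, with an unadjusted p above 0.01 where it was under 0.05), and without C7 the genes called were PCCB, MMUT and MMAB, beside 15.9% of all genes. The share of all genes called was 19.9% without C5, 2.44% without C9 and 5.14% without C11, and 0.846%, 22.1%, 1.02% and 22.3% without the 0, 0.5, 1 and 2 mM libraries.

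Levels of the 8 genes differed widely from each other. Averaged over all 16 libraries, CPM per kilobase of exon was 44.3 ± 17.2 for PCCB, 21.6 ± 8.66 for MMAB, 11.4 ± 1.55 for MMADHC and 7.76 ± 1.80 for MMUT. The lower levels were 4.02 ± 0.809 for PCCA, 3.19 ± 0.922 for MMAA, 1.15 ± 0.533 for MCEE and 0.857 ± 0.194 for MMACHC (SD, n = 16). In control cells MCEE was at 1.74 ± 0.311 per kilobase and above MMACHC (0.731 ± 0.194), and at 2 mM MCEE was at 0.466 ± 0.108 and below MMACHC (0.867 ± 0.142). These values are levels, not differences. Neighbours in the order such as PCCB and MMAB, or PCCA and MMAA, overlapped in their spread over libraries.

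**Figure D5:**
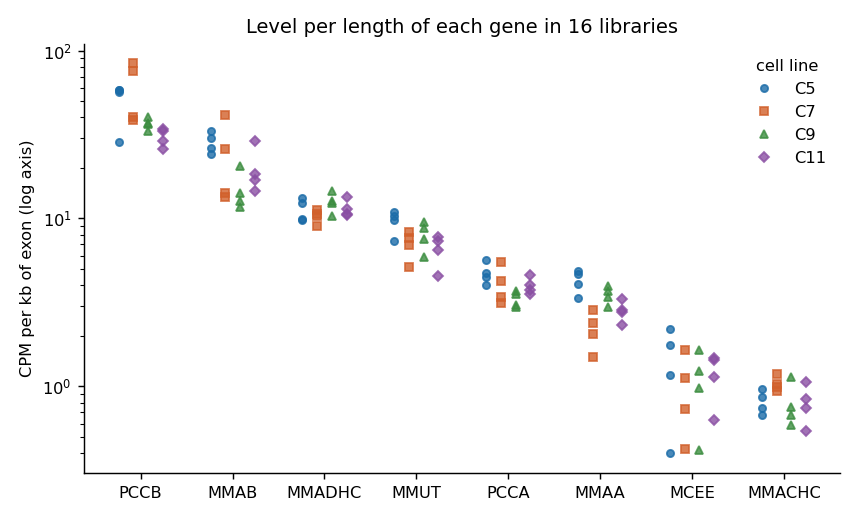
CPM per kilobase of exon (log axis) of the 8 genes in 16 libraries, ordered by mean level and separated by cell line, 1 point per library. PCCB is highest with a mean of 44.3 and MMACHC lowest with 0.857, and MCEE has the widest range in proportion to its level.

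Variation across libraries, as the coefficient of variation of CPM, was 46.4% for MCEE, 40.05% for MMAB, 38.8% for PCCB, 28.9% for MMAA, 23.2% for MMUT, 22.7% for MMACHC, 20.1% for PCCA and 13.6% for MMADHC. Among pairs of the 8, log2 CPM correlated most for PCCA and MMAB (Pearson r = 0.87 and Spearman rho = 0.86, n = 16 libraries). MCEE was most like MMUT (r = 0.67, rho = 0.79) and least like MMADHC (r = -0.62). These correlations are descriptions over libraries that share 4 lines and 4 doses, and genes with a slope in dose correlate through it.

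The genes most like MCEE over the 16 libraries, among 10867 genes with a symbol, were DPH5 (r = 0.95), DGLUCY (0.94), PECR (0.93), PGGHG (0.92) and NSMCE2 (0.91). DPH5 encodes a methyltransferase of diphthamide synthesis, DGLUCY the mitochondrial D-glutamate cyclase, PECR a peroxisomal trans-2-enoyl-CoA reductase, PGGHG a glucosidase that acts on glucosylgalactosyl hydroxylysine of collagen, and NSMCE2 a SUMO ligase of the SMC5-SMC6 complex. DGLUCY was at 5.85 ± 1.72 CPM in control cells and 1.59 ± 0.481 at 2 mM, and PECR at 16.6 ± 4.47 and 5.88 ± 1.07 CPM. DPH5 was at 17.2 ± 3.33 and 8.42 ± 1.57 CPM, PGGHG at 16.5 ± 4.31 and 7.32 ± 0.688, and NSMCE2 at 12.4 ± 1.74 and 8.35 ± 1.40. Being chosen for likeness to MCEE, the 5 genes were bound to share its direction. The most alike of the other 7, MMUT, stood at rank 313.

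In addition, 6 lists of genes around the pathway were followed, all chosen with earlier results of these data known. At each dose and for the slope, 0 genes of any list were called, beside 0% of all genes at each dose and 0.432% for the slope. The list upstream of propionyl-CoA, branched-chain amino acid catabolism, had 17 of 21 genes in the table and tested. For the slope 15 of these were lower and 2 higher, with a median of -0.28 per mM against 0.0024 over all genes. The median at 2 mM was -0.56 on the log2 scale, with 15 lower and 2 higher. Of all genes tested 6981 of 14108 were lower for the slope and 6568 of 13289 at 2 mM.

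The 3 smallest p-values for the slope in that list belonged to ECHS1, the short-chain enoyl-CoA hydratase, and to MCCC1 and MCCC2. MCCC1 and MCCC2 encode the subunits of methylcrotonyl-CoA carboxylase, an enzyme of leucine breakdown. This enzyme uses biotin, as propionyl-CoA carboxylase does. The 3 genes were named after their values were seen. MCCC1 was at 23.3, 19.0, 28.0 and 20.8 CPM in the C5, C7, C9 and C11 controls and at 16.1, 10.6, 13.7 and 12.8 CPM at 2 mM, so the groups did not overlap, as for 3.33% of all genes in this direction. Its slope was -0.44 per mM (SE 0.102, adjusted p = 0.0585). MCCC2 was at 20.3 ± 3.60 and 12.7 ± 1.44 CPM with a slope of -0.35 (SE 0.0889, adjusted p = 0.0727), and ECHS1 at 46.4 ± 16.8 and 20.8 ± 11.8 CPM with -0.55 (SE 0.162, adjusted p = 0.122). With the line as a replicate block their adjusted p-values were 0.0166, 0.0292 and 0.0318, and all were called, beside 4.96% of all genes. Over 33 alternatives they reached 0.729, 0.928 and 0.601. PPM1K, a phosphatase that activates the branched-chain ketoacid dehydrogenase, was called between lines (adjusted p = 0.0341), with 2.26 to 7.06 CPM in C11 and 6.48 to 21.4 in C9.

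The list downstream of succinyl-CoA, the TCA cycle, had 16 of 17 genes in the table. Of these 14 were lower and 2 higher for the slope, with a median of -0.10 per mM. At 0.5, 1 and 2 mM 13, 16 and 15 of 16 were lower, with median log2 fold changes of -0.22, -0.19 and -0.22. Of all genes tested 6629 of 13318, 6707 of 13330 and 6568 of 13289 were lower at these doses. Genes of a list share the same libraries and are not independent. Again named after their values were seen, SDHB (a subunit of succinate dehydrogenase) had a slope of -0.27 (SE 0.153, adjusted p = 0.434) and SDHA (another subunit) one of -0.16 (SE 0.0964, adjusted p = 0.471). FH, fumarase, was called between lines (adjusted p = 0.0152), at 90.2 to 104.4 CPM in C5 and 61.6 to 63.1 CPM in C9. In fatty acid beta-oxidation 17 of 20 genes were tested, 12 lower and 5 higher for the slope with a median of -0.06, and DECR1, a dienoyl-CoA reductase, was called between lines (adjusted p = 0.0194), at 8.13 to 13.9 CPM in C9 and 20.4 to 39.3 in C7.

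Cobalamin uptake and use had 12 of 14 genes tested for the slope, 7 higher and 5 lower with a median of 0.06. ABCD4, which works in the export of cobalamin from lysosomes, had a slope of -0.28 (SE 0.0900, adjusted p = 0.152), and MTR (methionine synthase, the other cobalamin enzyme) one of -0.43 (SE 0.279, adjusted p = 0.523). For biotin use 4 of 6 genes were tested. BTD (biotinidase, which recycles biotin) had a slope of -0.26 (SE 0.120, adjusted p = 0.314), SLC5A6 (the multivitamin transporter that takes up biotin) one of 0.22 (SE 0.142, adjusted p = 0.522) and ACACA (acetyl-CoA carboxylase) one of -0.17 (SE 0.171, adjusted p = 0.725).

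Of the genes for propionate activation and acyl-CoA side reactions 9 of 11 were tested, 6 lower and 3 higher for the slope with a median of -0.03. ACSS3, a mitochondrial acyl-CoA synthetase that uses propionate, was called between lines (adjusted p = 0.00180), with 0.197 to 0.498 CPM in C9 and 1.51 to 3.17 CPM in C11. CLYBL, a mitochondrial malyl-CoA and citramalyl-CoA lyase tied to the upkeep of vitamin B12 in humans, was also called between lines (adjusted p = 0.0240), highest in C5 at 3.30 to 8.96 CPM.

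Between lines 1 of 17 genes of branched-chain amino acid catabolism were called, 1 of 17 of beta-oxidation, 1 of 16 of the TCA cycle, 2 of 9 of propionate activation, 0 of 12 of cobalamin use and 0 of 4 of biotin use, beside 14.9% of all genes. These 5 calls were lost in 2 (ACSS3) to 6 (CLYBL) of 14 alternatives.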

How the data were processed

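Per the labels and the methods, RNA was prepared with a stranded mRNA kit and sequenced as single reads. The authors used hisat2 2.1.0 (assembly GRCg6a) and strand-specific exon counting in featureCounts, in which a read over several genes counts for each, and deposited the counts per gene and library without normalization. The exonic length in the deposited table, an other value beside the counts, was used for levels per kilobase. The deposited tables of the authors' DESeq2 results were not used. Of the 23910 genes 10393 had no symbol.

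The 8 genes, the gene lists and the tests were chosen with earlier results of these data known. Software was R 4.3.3, edgeR 4.0.16, DESeq2 1.42.0 and limma 3.58.1. The main test was the two-sided quasi-likelihood F-test of edgeR (TMM, filterByExpr, Benjamini-Hochberg adjustment over all genes tested), on 8 libraries per dose comparison without the line as a term, and on 16 libraries for the slope per mM and for lines with dose as a term. Log2 CPM used a prior count of 1. The length slope of a library used the 10632 genes whose mean count reached 100. Libraries were paired by line, since each line came from 1 hen. Deviations from the dose means correlated with a median of 0.53 within lines (24 pairs, from -0.24 to 0.81) and -0.15 between lines (72 pairs). The deviations within each dose cancel out over its lines. A positive value within lines thus makes the value between lines tend negative, so the latter is not separate evidence of pairing. Named genes were the 8, the neighbours of MCEE, the 5 genes most like it, and in each list those called in any comparison or otherwise the 3 with the smallest p for the slope. One gene named by this rule is not reported here. For dose fits without a line term, p-values rest on the spread between libraries of these cultures. For the line test and the replicate block fits, they rest on the spread left after line and dose.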

Additional observations from a re-analysis of the deposited data

Results flagged for a closer look

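Each of the 8 genes was examined in each of the 4 dose groups for a library far from the other 3 by Dixon's criterion, which chance meets in about 1 of 20 groups, and 3 of 32 groups met it. MCEE in C11 at 2 mM was at 1.86 CPM, where the other 3 lines were at 1.18 to 1.25. PCCB, the beta subunit of the carboxylase, was at 130.7 CPM in C7 at 2 mM against 44.8 to 57.6 in the other lines, and C7 also had the highest PCCB control (145.1 CPM). MMACHC was at 3.33 CPM in C7 at 0.5 mM against 2.09 to 2.12 in the others.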

How the results depend on the processing

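MCEE was chosen for its dose pattern, so its own calls across dose restate that choice. At 2 mM the 0 of 8 genes called by edgeR became 1 (MCEE) in DESeq2 (2.69% of all genes), 1 (MCEE) with the replicate block and length slope (5.43%), 1 (MCEE) with all 16 libraries in one fit (0.0213%) and 2 (MCEE and MMUT) in DESeq2 with the replicate block (14%). The last alternative was chosen after seeing the data and called 1 (MCEE) at 1 mM (5.09%). With the replicate block alone the counts were 0 at each dose and 1 (MCEE) for the slope. For the slope the 1 gene counted is MCEE, and none of the other 7. The count was 3 (with MMUT and MMADHC) with the replicate block and length slope (16.1% of all genes) and 3 in DESeq2 with the replicate block (12.2%). It was 0 without the 2 mM libraries, 0 without the 0.5 mM libraries, 0 in the 9 libraries with a negative length slope, and 0 to 1 with a line or library left out (0 without C5, C9, C11, or C9 at 2 mM). The MCEE slope was -0.80 without the 2 mM libraries and -0.61 per dose step with dose as rank. With a line or library left out it ran from -1.09 to -0.86, and the MCEE log2 fold change at 2 mM from -2.19 to -1.72. Between lines, the 1 gene called (14.9% of all genes) became 3 in DESeq2 (33.5%), 2 with dose as a number (16.5%), 3 with the length slope as a covariate (22%), 0 without the 0, 0.5, 1 or 2 mM libraries, and 0 to 3 with a line left out.

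Values that changed sign lay between -0.39 (MMAB at 1 mM) and 0.050 (MMAA at 1 mM) in the main fits. None of them was called, and the cause was not tested. At 0.5 mM, PCCA (-0.15) was 0.068 with the replicate block and length slope and 0.10 with the length slope as a covariate, PCCB (-0.32) was 0.037 with the former, and MMUT (-0.012) was 0.024 and 0.010. At that dose MMAB (5.6e-06) was -0.034 in DESeq2 and -0.034 with RLE, and MMADHC (0.026) was -0.0031 in DESeq2, -0.0029 with RLE, -0.089 with the replicate block and length slope and -0.068 with the length slope. MMAA at 1 mM (0.050) was -0.011 with the replicate block, -0.023 with the length slope added and -0.030 in DESeq2 with the replicate block. In the 7 libraries with a positive length slope the dose slopes were 0.043 for PCCA, 0.031 for MMAB and -0.013 for MPHOSPH10, and without the 2 mM libraries that of MMAA was 0.042. With a line or library left out, 0.5 mM values ran from -0.30 to 0.041 for PCCA, -0.49 to 0.020 for PCCB, -0.10 to 0.10 for MMUT, -0.25 to 0.58 for MMAB and -0.059 to 0.13 for MMADHC. Those at 1 mM ran from -0.21 to 0.21 for MMAA and -0.75 to 0.12 for MMAB, those of MMAB at 2 mM from -0.48 to 0.077, and the slope of MPHOSPH10 from -0.045 to 0.13. MCEE and MMACHC had the lowest counts, and counting error is largest for them.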
